A study of Schima superba and Cryptocarya concinna with 24 samples.

Results

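Core and linker histones, the proteins that package DNA, were followed as transcripts in leaves of 2 subtropical trees, Schima superba and Cryptocarya concinna. A unigene (an assembled transcript) was taken as a histone where the name of its best protein hit held histone H1, H2, H3 or H4, while names of enzymes or chaperones that act on histones were left out. The rule found 99 of 117867 unigenes, 45 of the 57053 of S. superba and 54 of the 60814 of C. concinna. The rule reads hit names and no measured value. Leaf RNA came from seedlings collected in a subtropical evergreen forest and grown in full sunlight (100%, full light) or shaded to 30% by black nylon netting (low light). From each light, young and mature leaves were taken, so a species has 4 groups of 3 libraries, numbered 1 to 3 as the labels number them. All groups of a species were whole leaves without any genetic change named, so a library mixes the cell types of the leaf. No label tells whether libraries of a group are separate plants. The p-values therefore reflect spread among these samples alone, and that spread may be technical. Values are FPKM, a fragment level corrected for transcript length and library size, as the authors deposited them.

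A nucleosome is DNA wound around an octamer of the core histones H2A, H2B, H3 and H4, and the linker histone H1 binds where the DNA enters and leaves it. In plants the canonical core histones, among them H3.1-type proteins that hit names may call H3.2, are made mainly during S phase, when new DNA needs packaging. Replacement variants such as H3.3, H2A.Z and H2A.X are also made outside S phase and enter chromatin during transcription or repair, and centromeric H3 (CENH3, called HTR12 in Arabidopsis and CSE4 in yeast) marks the kinetochore. In leaves, cell division takes place in the young blade and stops as the blade expands.

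Relative depth was read from the steps between low values, by a search over a narrow range around 1. It was 0.969 to 1.04 in S. superba and 0.936 to 1.07 in C. concinna with 1 library of each set to 1. That search could not have found a larger difference in depth. Summed FPKM ran from 769593 to 977277 per library, but FPKM are already corrected for library size, so the sum does not measure it. Unigenes at an FPKM of 1 or more numbered 32295 to 43905 per library in S. superba and 31663 to 44030 in C. concinna. Absolute depth is unknown. Young low light libraries 2 and 3 of S. superba were closer to each other than other pairs, with an SD of log2 ratios of 0.368 over unigenes averaging at least 50 FPKM, against 0.765 to 1.37 for the other pairs of that species. Over the histones averaging at least 1 FPKM the same pair had an SD of 0.558, inside the range of the other pairs (0.496 to 1.22). In C. concinna, mature low light library 2 held 10 of 46 histone unigenes at 3 or more times the level of both other libraries of its group, against 3.85% of all unigenes, and each of the other 23 libraries of the series held 0 to 2 such histones. Without S. superba young low light library 2, library 3 or both, the ratio of full over low light of the summed histones of young leaves given below, 2.56, was 2.30 to 2.75, and without mature low light library 2 the sum of young over mature low light leaves in C. concinna was 1.63. The calls that end without 1 of these libraries, or with the alike pair averaged into 1 sample or left out together, are given beside them or as counts.

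The hits behind the names came from land plants only, 18 and 20 of them by species. The first KEGG term gave the same histone class for 44 of 45 unigenes in S. superba (1 had no term) and for 53 of 54 in C. concinna, where the unigene named H2 without a letter carried an H2A term. Hits with an E-value over 1e-20, short or distant matches, numbered 5 and 9. By class S. superba had 5 H1, 11 H2A, 9 H2B, 13 H3 and 7 H4 unigenes, and C. concinna 6 H1, 14 H2A, 11 H2B, 19 H3, 3 H4 and 1 named H2 without a letter. Histone genes are near-identical copies, and 18 unigenes in 11 contig clusters and 16 in 7 share sequence with others, so the split of reads among copies is uncertain. The name rule is also not complete. A further 31 unigenes in the first species and 27 in the second carried a core histone KEGG term at an E-value of 1e-40 or less but were described as hypothetical or uncharacterised, and these are given beside the results they touch.

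A unigene was tested where 3 or more of the 12 libraries reached an FPKM of 1, which kept 34 of 45 and 46 of 54 histones. The other 11 and 8 stayed low, at most 2.68 and 7.63 FPKM in any library, and 8 and 6 of them never reached 1. Both H3.3 unigenes of S. superba were among these. A histone that passed only through its high group had to differ between groups, so the counts below describe the tested histones and no more. Changes are differences of log2(FPKM + 1), which understate those of low unigenes, and a call is an adjusted p under 0.05 from limma over all unigenes tested.

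Together the histones made up 0.136 to 0.841% of the summed FPKM of a library in S. superba and 0.394 to 1.88% in C. concinna. In S. superba the sum was highest in young leaves in full light, at 6589, 5546 and 6759 FPKM in the 3 libraries, and 2683, 1895 and 2793 in young leaves in low light. Mature leaves of that species had 1412, 1106 and 1679 in full light and 2046, 1403 and 1675 under low light. In C. concinna the order of the young groups was the opposite: 5061, 6189 and 5118 in full light and 8883, 15812 and 11479 under low light. Its mature leaves had 3319, 3679 and 5193 in full light and 7846, 5877 and 6917 under low light. Young leaves in full light carried 2.56 times the sum of those in low light in S. superba and 0.452 times in C. concinna, and in both species the libraries of these 2 groups did not overlap. Sums were not tested, nor was the difference between the species. In bulk leaves, fewer cells of a type and less RNA per cell cannot be told apart.

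**Figure D1:**
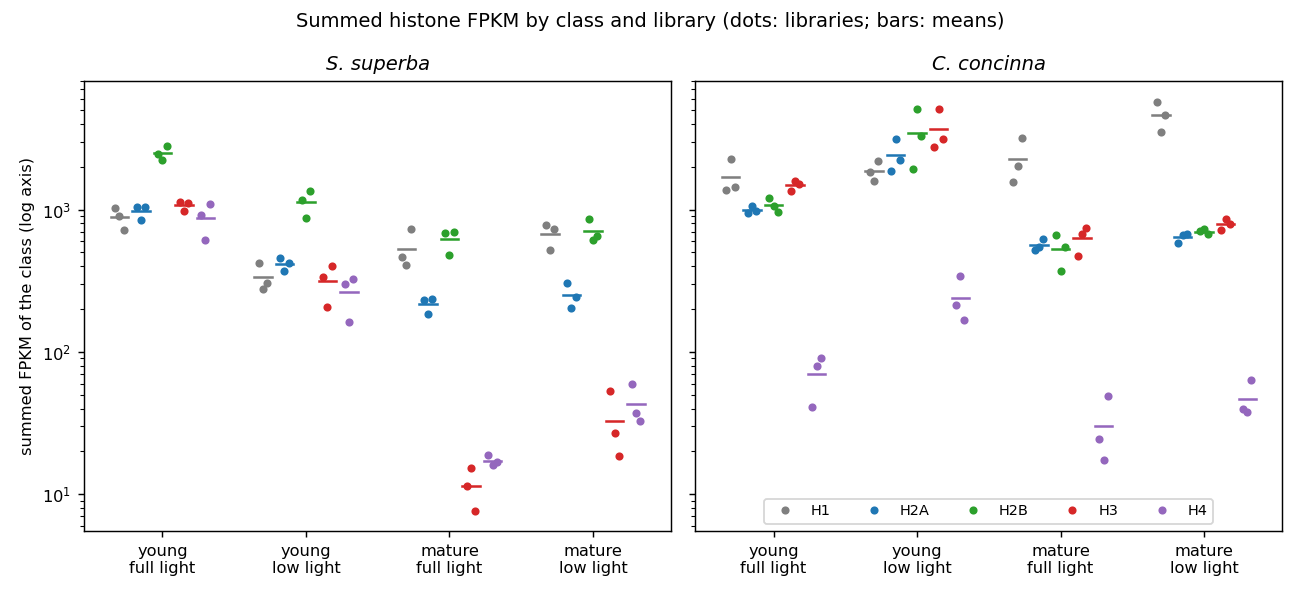
Summed FPKM of each histone class (log axis) in each library, by leaf age and light, for both species. Dots are libraries and bars are group means of 3. In S. superba H3 and H4 drop from 1069 and 877 FPKM in young full light leaves to 11.4 and 17.2 in mature ones, while H1 in C. concinna is highest in mature low light leaves.

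**Figure D2:**
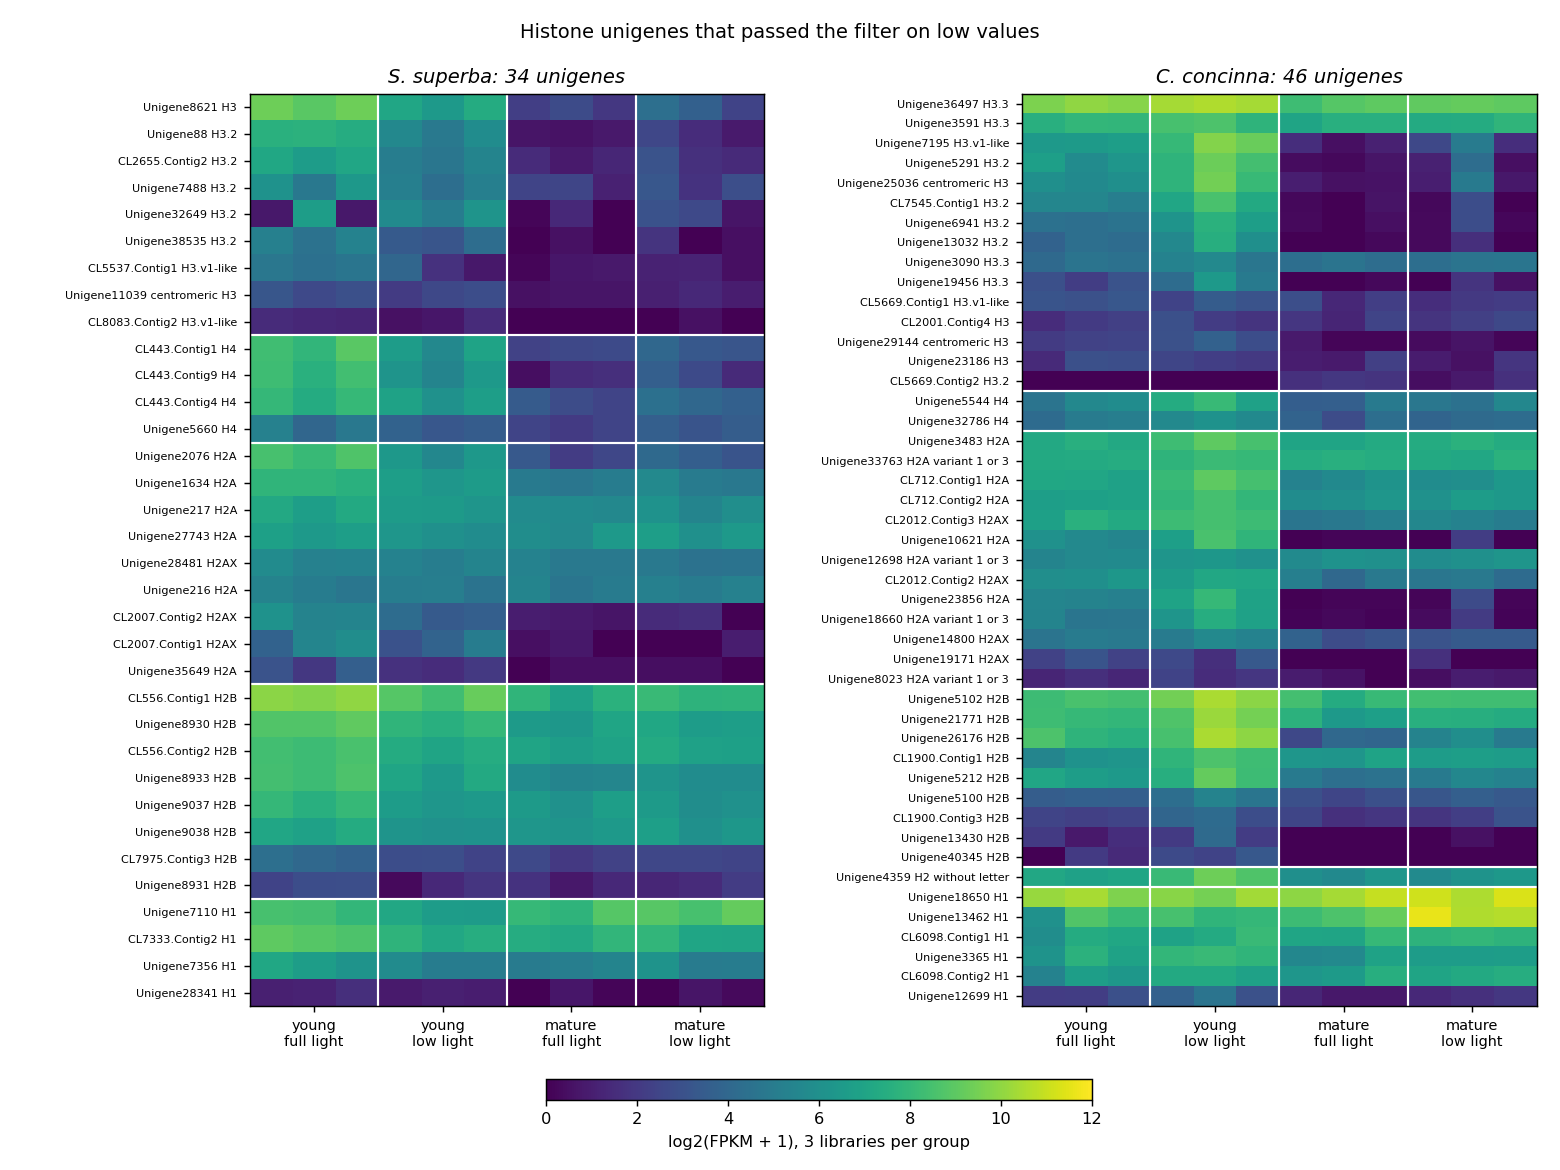
Level of each tested histone unigene, as log2(FPKM + 1), in the 3 libraries of each group, ordered by class (H3, H4, H2A, H2B, H1 from top to bottom) and by mean level within a class. In C. concinna the second of the mature low light columns is brighter than its neighbours for 10 unigenes.

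More histones were called for leaf age than for light. In full light, 30 of 34 tested histones of S. superba were higher in young leaves and 0 lower, where 46.0% of all unigenes tested were called (36.3% higher in young leaves, 9.67% lower). In low light 19 were higher and 1 lower, against 38.7% of all (29.5% higher, 9.19% lower). The median log2 change of the tested histones was 2.32 in full and 0.98 in low light, beside 0.55 and 0.39 over all unigenes. In C. concinna 26 of 46 were higher in young leaves in full light and 1 lower (28.4% of all called, 20.2% higher and 8.19% lower), and 37 were higher and 3 lower in low light (37.8% of all called, 17.1% higher and 20.7% lower). Medians were 1.12 and 1.97, beside 0.17 and -0.27 over all unigenes. Called in both lights were 18 histones of S. superba, 60% of its full light list and 90% of its low light list, all higher in young leaves. C. concinna had 27 called in both, 100% and 67.5% of the lists, 26 of them higher in young leaves.

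All unigenes together shifted with age in S. superba. Rescaling libraries by the median ratio of their unigenes moved the median of all from 0.55 to 0.09 in full light and from 0.39 to 0.06 in low light, and the calls among histones became 24 higher and 0 lower, and 14 higher and 3 lower. The 3 lower under that scaling were Unigene7110, Unigene9038 and Unigene27743, so the share of calls that were higher went from 95% to 82.4% in low light. In C. concinna the same scaling left 16 higher and 1 lower in full light and 37 higher and 2 lower in low light. The summed histone FPKM of young over mature leaves in C. concinna in full light, 1.34 as deposited, was 1.01 after rescaling, and in S. superba in low light it went from 1.44 to 1.04.

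H3 forms the core of the nucleosome together with H4. Unigene8621 of S. superba, a histone H3 and its most abundant H3 by name, had FPKM of 648, 488 and 645 in young leaves in full light and 136, 86.1 and 166 in young leaves in low light. It had 3.7, 5.79 and 2.85 in mature leaves in full light and 19.9, 11.8 and 4.25 in mature leaves in low light. No library of a young group overlapped a mature one. The log2 change with age was 6.89 ± 0.44 (SE, n = 3 per group; limma, adjusted p = 5.34e-07) in full light and 3.49 ± 0.44 in low light (adjusted p = 0.000102). Unigene88, an H3.2-like histone, went from 193, 206 and 170 to 0.61, 0.50 and 0.74 in full light, and its libraries in low light had 47.4, 27.9 and 56.9 in young and 4.96, 1.87 and 0.82 in mature leaves. Its changes were 6.88 and 3.78. Of the 5 H3.2 unigenes of S. superba, 4 were called higher in young leaves in each light, against 36.3% (full) and 29.5% (low) of all unigenes. The exception in both lights, Unigene32649, had 0.71, 100.2 and 0.71 FPKM in young leaves in full light, so 1 library carried that mean. In low light it had 52.2, 31.9 and 73.4 in young and 7.13, 5.20 and 0.58 in mature leaves, which do not overlap. The split of reads among near-identical H3 copies is uncertain.

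In C. concinna 4 of 5 H3.2 unigenes were near 0 in mature leaves. Unigene5291 had 109, 55.0 and 78.2 FPKM in young leaves in full light and 225, 631 and 336 under low light, but 0.31, 0.20 and 0.59 in mature leaves in full light. Its mature low light libraries had 1.18, 18.3 and 0.41, the 18.3 in library 2. Changes with age were 5.86 ± 0.75 in full light (adjusted p = 0.000131) and 6.54 ± 0.75 in low light (adjusted p = 4.61e-05). CL7545.Contig1, Unigene6941 and Unigene13032, also H3.2 by name, changed by 5.10, 4.20 and 4.03 in full light and by 6.61, 5.75 and 5.73 in low light. These 4 calls in low light, and those of the other 6 histones that stood high in mature low light library 2, were also made without that library. The fifth, CL5669.Contig2, a short H3.2-like match, was listed at 0 in all 6 young libraries and had 2.19, 2.87 and 2.45 in mature leaves in full light and 0.36, 0.78 and 2.18 under low light. It was called lower in young leaves in both lights (log2 -1.80, adjusted p = 0.00116; -0.98, adjusted p = 0.0285), the second call was lost without mature low light library 3 (0.123) or any young low light library (0.0625 to 0.0679), and the values changed sign (0.28 and 0.74, not called) when contigs of its cluster were summed.

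H3 by name did not make up the whole H3 pool of S. superba. The 9 unigenes with an H3 KEGG term that the name rule missed summed to 1384, 1269 and 1446 FPKM in young leaves in full light and 1186, 944 and 871 under low light. They still had 821, 627 and 757 in mature leaves in full light and 1020, 662 and 823 under low light. The named H3, by contrast, summed to 1125, 971 and 1111 in young leaves in full light and to 11.4, 15.2 and 7.64 in mature ones, a ratio of means of 93.5 (57.9 after rescaling). The values near 0 in mature leaves thus belong to the 13 named H3 unigenes, of which 5 are H3.2 by name, and not to H3 as a whole.

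H4 pairs with H3 and has few variants. CL443.Contig1 had 323, 239 and 479 FPKM in young leaves in full light and 96.8, 47.8 and 125 under low light, and 4.19, 5.11 and 5.56 and then 14.9, 8.92 and 7.82 in the mature groups. Its age change was 5.82 in full (adjusted p = 4.93e-07) and 2.92 in low light (adjusted p = 9.88e-05). All 4 tested H4 were higher in young leaves in full light and 3 in low light, against 36.3% and 29.5% of all unigenes. Summed H4 was 50.9 times as high in young as in mature leaves in full light (31.2 after rescaling) and 6.11 times in low light (4.43 after rescaling, and 5.39 to 7.27 without young low light library 2, 3 or both). The 6 H4 unigenes known by KEGG term alone kept more in mature leaves, 192, 133 and 170 FPKM in full light against 842, 677 and 813 at the young stage. C. concinna had only 2 tested H4 by name. Unigene5544 had 23.4, 48.4 and 56.2 in young leaves in full light, 164, 271 and 117 in low light, 11, 11.4 and 30.0 in mature leaves in full light and 26.3, 20.9 and 45.3 under low light, and it changed with age by 2.53 in low light (adjusted p = 0.00119). Most H4 of this species lay outside the name rule: 14 unigenes with the KEGG term summed to 945, 1105 and 1013 in young full light leaves and 2164, 4662 and 2954 in young low light leaves.

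H2A and H2B form the outer dimers of the nucleosome. Among the named unigenes of S. superba, mature leaves in full light had 22.2% of the young level of summed H2A and 24.9% of that of H2B, against 1.07% for H3 and 1.97% for H4. That order belongs to the names, because with the unigenes known by KEGG term alone added the shares were 26.2% for H2A, 25.0% for H2B, 30.7% for H3 and 11% for H4. In C. concinna the 4 named core classes lay closer together, at 42.4 to 56.3% in full light and 19.6 to 26.6% in low light. CL556.Contig1, an H2B and the most abundant histone of S. superba, had 951, 864 and 1024 FPKM in young leaves in full light and 231, 117 and 200 in mature ones, a log2 change of 2.42 (adjusted p = 5.03e-05). In low light it had 452, 319 and 592 against 275, 214 and 226, a change of 0.89 whose call (adjusted p = 0.0324) was lost without mature low light library 2 (0.0914) or 3 (0.0782) or young low light library 1 (0.074) or 3 (0.128), and after rescaling (0.351). All 8 tested H2B were higher in young leaves in full light, and 3 in low light, against 36.3% and 29.5% of all unigenes. Summed H2B was 4.01 times as high in young leaves in full light (2.46 after rescaling) and 1.59 times in low light (1.16 after rescaling).

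Single H2A unigenes of S. superba differed from one another. Unigene2076, H2A-like, had 363, 271 and 414 FPKM in young leaves in full light, 84.3, 45.8 and 84.3 in low light, 9.10, 3.44 and 4.83 in mature leaves in full light and 16.0, 11.1 and 7.54 under low light, with no overlap between young and mature libraries. Its age changes were 5.75 and 2.53. Unigene216, named H2A.4, had 39.9, 32.0 and 25.2 in young and 42.0, 24.4 and 31.0 in mature leaves in full light, which overlap (log2 0.01, adjusted p = 0.987). Of 9 tested H2A, 7 were called in each light, all higher in young leaves, against 36.3% (full) and 29.5% (low) of all unigenes. The weakest call, Unigene27743 (H2A.6, log2 0.67, adjusted p = 0.0484), was lost without 9 of the 12 libraries in turn (up to 0.171) and after rescaling (0.993).

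In C. concinna the same range was seen. Unigene10621, H2A.1-like, had 66.2, 49.7 and 43.2 FPKM in young leaves in full light and 108, 373 and 234 under low light, and 0, 0.13 and 0.13 and then 0, 3.58 and 0 in the mature groups. Its changes were 5.62 (adjusted p = 2.03e-05) and 7.0 (adjusted p = 2.88e-06). Unigene3483, named H2A.3, had 149, 192 and 150 in young and 129, 127 and 161 in mature leaves in full light, which overlap, and 309, 523 and 369 against 167, 200 and 166 in low light, a change of 1.14 (adjusted p = 0.00265). Among H2B, Unigene5102, the most abundant, had 299, 377 and 341 in young and 335, 165 and 267 in mature leaves in full light, and 700, 1410 and 957 against 332, 316 and 320 in low light. It was called in low light only (1.60, adjusted p = 0.00149; 0.46, adjusted p = 0.28 in full light), and the difference of these effects was not called (-1.14 on the log2 scale, adjusted p = 0.414). All 9 tested H2B were called higher in young leaves in low light and 5 in full light, against 17.1% and 20.2% of all unigenes. Unigene4359, named H2 without a letter, was also higher in young leaves in both lights (1.04, adjusted p = 0.0211; 2.63, adjusted p = 4.44e-05). Its full light call was lost after rescaling (0.226) and without mature full light library 1 (just above 0.05) or 2 (0.0818) or young full light library 1 (0.0612) or 3 (0.0588).

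**Figure D3:**
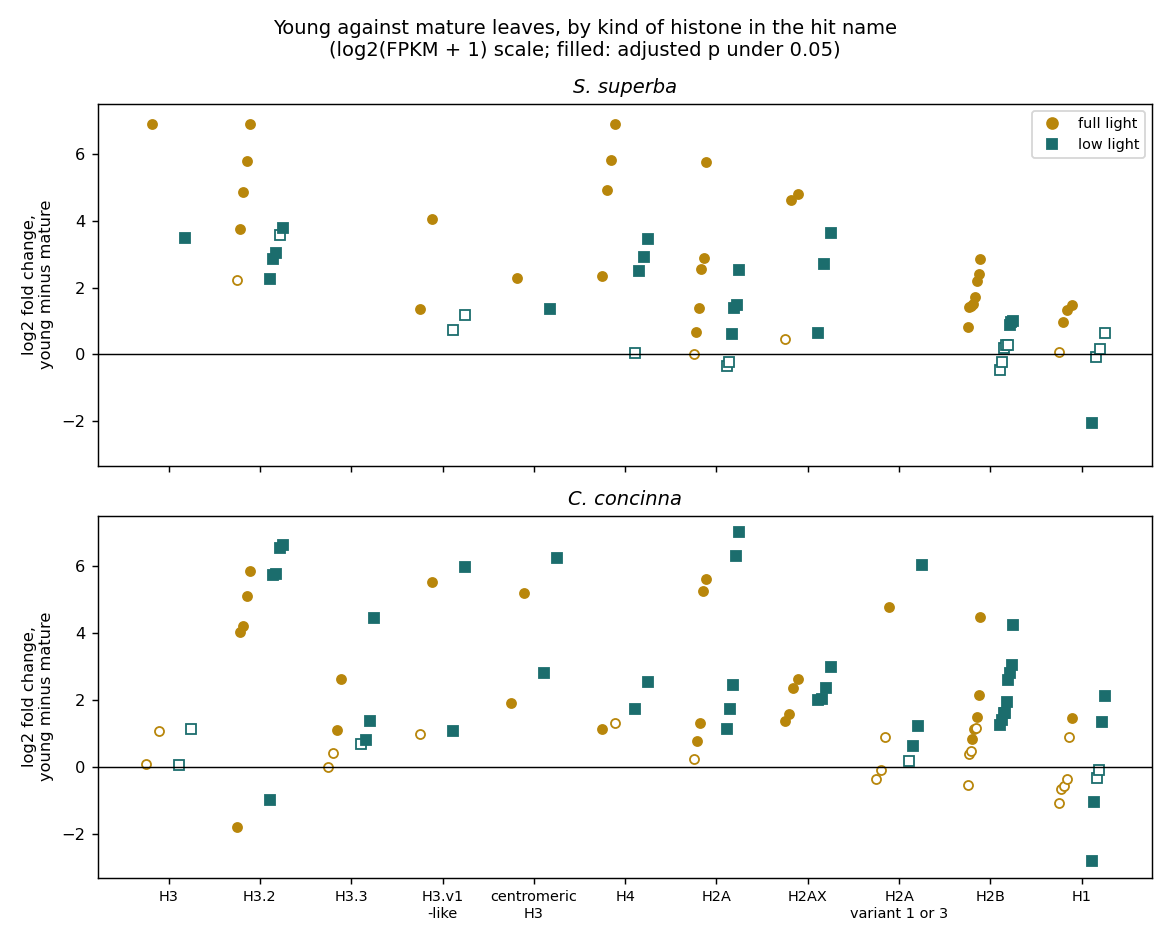
Log2 fold change of young over mature leaves for each tested histone, by the kind of histone in its hit name, in full light (circles) and low light (squares). Filled symbols are called at an adjusted p under 0.05. H3.2 reaches 6.88 in S. superba and 6.61 in C. concinna, while H3.3 Unigene36497 lies at 1.11 and 1.38. The H2 unigene without a letter is not drawn.

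Replacement variants were less uniform. The H3.3 of C. concinna, a variant laid down in transcribed chromatin, stayed abundant in mature leaves. Unigene36497 had 787, 1022 and 898 FPKM in young and 308, 449 and 520 in mature leaves in full light, and 1343, 1537 and 1319 against 530, 564 and 518 in low light. It was called in both lights (1.11 ± 0.24, adjusted p = 0.00428; 1.38 ± 0.24, adjusted p = 0.000884), the first of which was lost after rescaling (0.144). Unigene3591, H3.3-like, had 186, 247 and 238 in young and 129, 189 and 188 in mature leaves in full light and 365, 399 and 221 against 158, 168 and 228 in low light, where it was called (0.80, adjusted p = 0.0356). That call was lost without mature low light library 1 (0.116) or 2 (0.0729) or young low light library 1 (0.107) or 2 (0.122). Unigene3090, H3.3-like too, had 16.1 to 23.9 FPKM in young and 18.6 to 23.3 in mature leaves in full light and was not called in any comparison. The fourth, Unigene19456, a partial hit with an E-value of 6.16e-08, was called in both lights with larger changes (2.63 and 4.44). Summed H3.2 was 47.0 times as high in young as in mature leaves in full light, and summed H3.3 was 1.87 times. No test was made of that difference between the kinds.

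A pair of H2A unigenes of C. concinna shared the hit name H2A variant 1, a name used for H2A.Z-type proteins, but their levels in mature leaves differed. Unigene18660 had 41.1, 24.7 and 25.6 FPKM in young leaves in full light and 76.0, 178 and 116 under low light, against 0.09, 0.18 and 0.09 and then 0.28, 3.28 and 0.09 in mature leaves. Unigene12698 had 41.9, 49.1 and 52.5 in young and 52.8, 67.8 and 64.3 in mature leaves in full light, and 75.8, 80.5 and 66.1 against 57.0, 65.1 and 75.1 in low light. The first was called in both lights (4.77 and 6.01, adjusted p = 2.07e-05 and 2.82e-06), and the second in neither (-0.36, adjusted p = 0.205; 0.17, adjusted p = 0.513). The difference between the 2 unigenes was not tested. Unigene33763, named H2A variant 3, had 158, 162 and 172 in young and 170, 186 and 173 in mature leaves in full light (-0.10, adjusted p = 0.735). In low light it was called at 0.61 (adjusted p = 0.0279), a call lost without mature low light library 1 (0.093) or 2 (0.0673) or young low light library 2 (0.0786) or 3 (0.0621). The 1 H2A variant unigene of S. superba did not pass the filter.

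H2A.X, the variant that is phosphorylated at DNA breaks, was higher in young leaves for 4 of 4 tested unigenes of C. concinna in both lights. Of all unigenes of that species, 20.2% (full light) and 17.1% (low light) were called higher in young leaves. CL2012.Contig3 had 111, 197 and 153 FPKM in young and 24.6, 26.6 and 35.5 in mature leaves in full light, and 298, 348 and 294 against 46.5, 39.6 and 31.4 in low light. Its changes were 2.35 (adjusted p = 3.67e-05) and 2.98 (adjusted p = 4.55e-06). In S. superba CL2007.Contig1 and CL2007.Contig2, which share sequence, changed by 4.61 and 4.81 in full light. Unigene28481, H2AX-like, had 55.1, 37.1 and 39.6 in young and 39.1, 28.1 and 28.3 in mature leaves in full light (0.45, adjusted p = 0.093) and was called in low light at 0.63 (adjusted p = 0.0288). That call was lost after rescaling (0.597) and without mature low light library 2 (0.0859) or 3 (0.0732) or young low light library 1 (0.0748) or 3 (0.0996), or with the alike pair averaged (0.0526).

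Centromeric H3, which marks where spindle fibres attach, was called higher in young leaves for all 3 tested unigenes in both lights. By full and low light, so were 20.2% and 17.1% of all unigenes of C. concinna and 36.3% and 29.5% of S. superba. Unigene25036 of C. concinna, CSE4-like, had 62.3, 51.0 and 62.6 FPKM in young leaves in full light and 221, 698 and 270 under low light. Mature leaves had 1.03, 0.47 and 0.48 in full light and 1.01, 28.5 and 0.71 under low light, the 28.5 again in library 2. Changes were 5.18 (adjusted p = 0.00066) and 6.22 (adjusted p = 0.000145). Unigene29144, named HTR12, changed by 1.89 and 2.79. In S. superba Unigene11039, named HTR12, had 8.15, 5.36 and 6.64 in young and 0.45, 0.62 and 0.61 in mature leaves in full light, and 3.22, 4.98 and 6.12 against 1.10, 1.59 and 0.95 in low light (2.29, adjusted p = 3.65e-05; 1.36, adjusted p = 0.00202), and the low light call was lost without both alike young low light libraries (0.112). H3.v1, a name given to a Dictyostelium protein, was the hit of Unigene7195 in C. concinna, which had 88.3, 91.0 and 105 in young and 1.98, 0.39 and 1.14 in mature leaves in full light (5.53, adjusted p = 0.000115).

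In young leaves the summed histones were higher in full light in S. superba and higher in low light in C. concinna, and calls were many in the first species and 1 in the second. In S. superba 19 of 34 tested histones were higher in full than in low light and 0 lower, where 5.33% of all unigenes tested were called (3.02% higher, 2.32% lower). By class these were 3 of 4 H1, 3 of 9 H2A, 6 of 8 H2B, 4 of 9 H3 and 3 of 4 H4. Among the H3 was CL5537.Contig1, an H3.v1-like hit without a KEGG term, with a log2 change of 2.48 (adjusted p = 0.0455). It had 25.7, 20.7 and 24.5 FPKM in full and 14.5, 2.26 and 0.69 in low light. Its call was lost without 10 of the 12 libraries in turn (up to 0.166). The log2 change was positive for 33 of 34 with a median of 1.26, beside 0.07 over all unigenes, and 26 had groups that did not overlap, as had 19.0% of all unigenes in that direction. The count rested on single libraries. It was 3 without young low light library 2, 7 without young full light library 3, 8 without young full light library 1 and 10 without young low light library 3, and all calls lost kept their sign. With the alike libraries 2 and 3 of young low light averaged into 1 sample it was 6, all among the 19, where 1.33% of all unigenes were called. Without both of them, which leaves 1 library assumed to vary like those of the other groups, limma called 0, with 22 higher and 0 lower at an unadjusted p under 0.05, and 0.0647% of all unigenes. The log2 change was then positive for 32 of 34, with a median of 1.04. Unigene2076 (H2A), Unigene8933 (H2B.3) and CL7975.Contig3 (H2B) were called with any 1 of the 12 libraries left out and with the pair averaged. Of the 29 tested unigenes known by KEGG term alone, 10 were higher in full light and 0 lower.

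**Figure D4:**
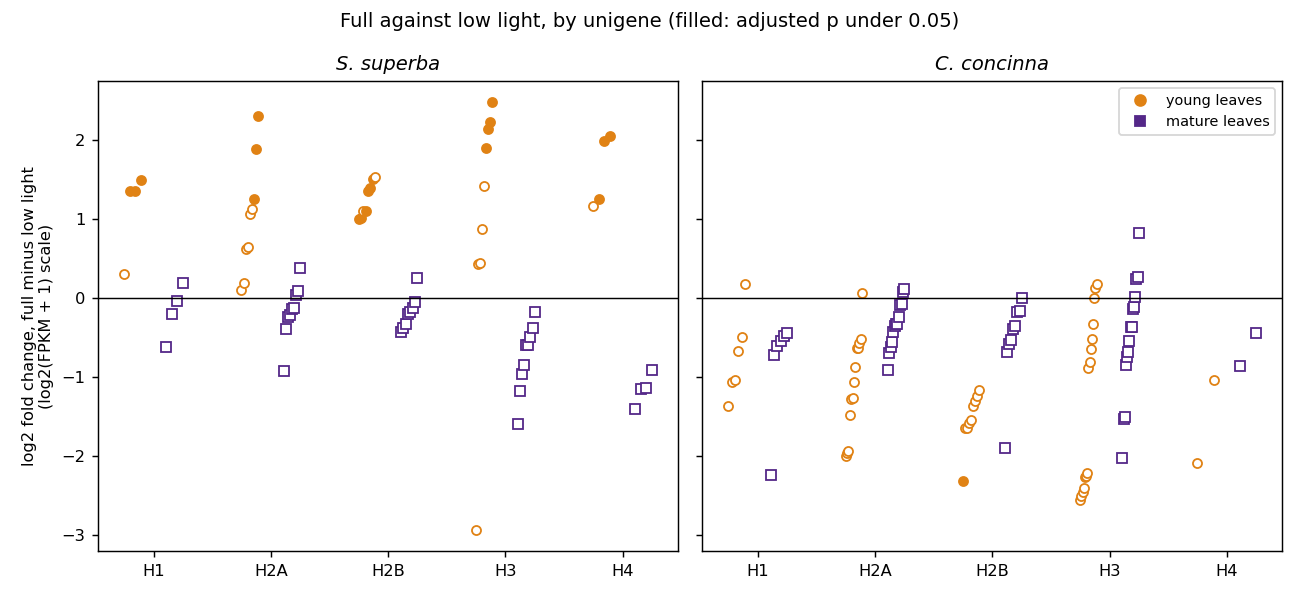
Log2 fold change of full over low light for each tested histone, by class, in young leaves (orange circles) and mature leaves (purple squares). Filled symbols are called at an adjusted p under 0.05. In young leaves 33 of 34 changes are positive in S. superba, and 41 of 46 are negative in C. concinna, where 1 is called. The H2 unigene without a letter is not drawn.

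The values of Unigene2076, Unigene8621 and CL443.Contig1 given above show the size of the light contrast. Each had its 3 young full light libraries above its 3 young low light libraries. Changes with light were 2.31 ± 0.36 for Unigene2076 (H2A, adjusted p = 0.00795), 2.23 ± 0.44 for Unigene8621 (H3, adjusted p = 0.0184) and 1.98 ± 0.36 for CL443.Contig1 (H4, adjusted p = 0.0146). Unigene8621 lost its call without young low light library 2 (0.0873), young full light library 1 (0.0582) or 3 (0.0595), or with the alike pair averaged (0.0607). CL443.Contig1 lost its call without young low light library 2 (0.0554) or young full light library 3 (0.0521). Unigene8933, an H2B.3, had 345, 298 and 399 FPKM in young leaves in full light and 133, 85.7 and 156 under low light (1.5 ± 0.24, adjusted p = 0.00823). CL556.Contig1, the most abundant H2B, changed by 1.10 and missed the threshold (adjusted p = 0.0549), although its groups did not overlap.

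In young leaves of C. concinna most histones had higher values in low light, but the test called 1. The log2 change of full over low light was negative for 41 of 46 and positive for 4, with a median of -1.25, beside 0.34 over all unigenes. Groups did not overlap, with low light higher, for 34 of 46, as for 4.65% of all unigenes. Calls were few in the whole comparison: limma called 0.0302% of all unigenes (0.0245% higher, 0.00566% lower), while 17.9% had an unadjusted p under 0.05, as had 35 of the 46 histones, all lower in full light. The 1 called was CL1900.Contig1, H2B.11-like, with 43.5, 67.6 and 76.6 FPKM in full light and 229, 399 and 312 under low light (log2 -2.31 ± 0.28, adjusted p = 0.014). It lost its call without young full light library 2 (0.0512), young low light library 2 (0.0565) or 3 (0.0538), and in a fit of only the 2 groups compared (0.213). Other histones changed as much with wider spread. H3.2 Unigene5291 changed by -2.21 ± 0.75 (adjusted p = 0.194) and H4 Unigene5544 by -2.09 ± 0.46 (adjusted p = 0.137). H2B1 Unigene26176 had 398, 224 and 188 in full and 367, 1428 and 982 in low light, which overlap. Young low light library 2 had the highest summed core histones, 14236 FPKM against 7040 and 9280 in libraries 1 and 3, and the 3 full light libraries had 3670 to 3909. After median-ratio rescaling, the summed histones of full over low light were 0.306 times in place of 0.452, and 2.42 in place of 2.56 in S. superba.

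**Figure D5:**
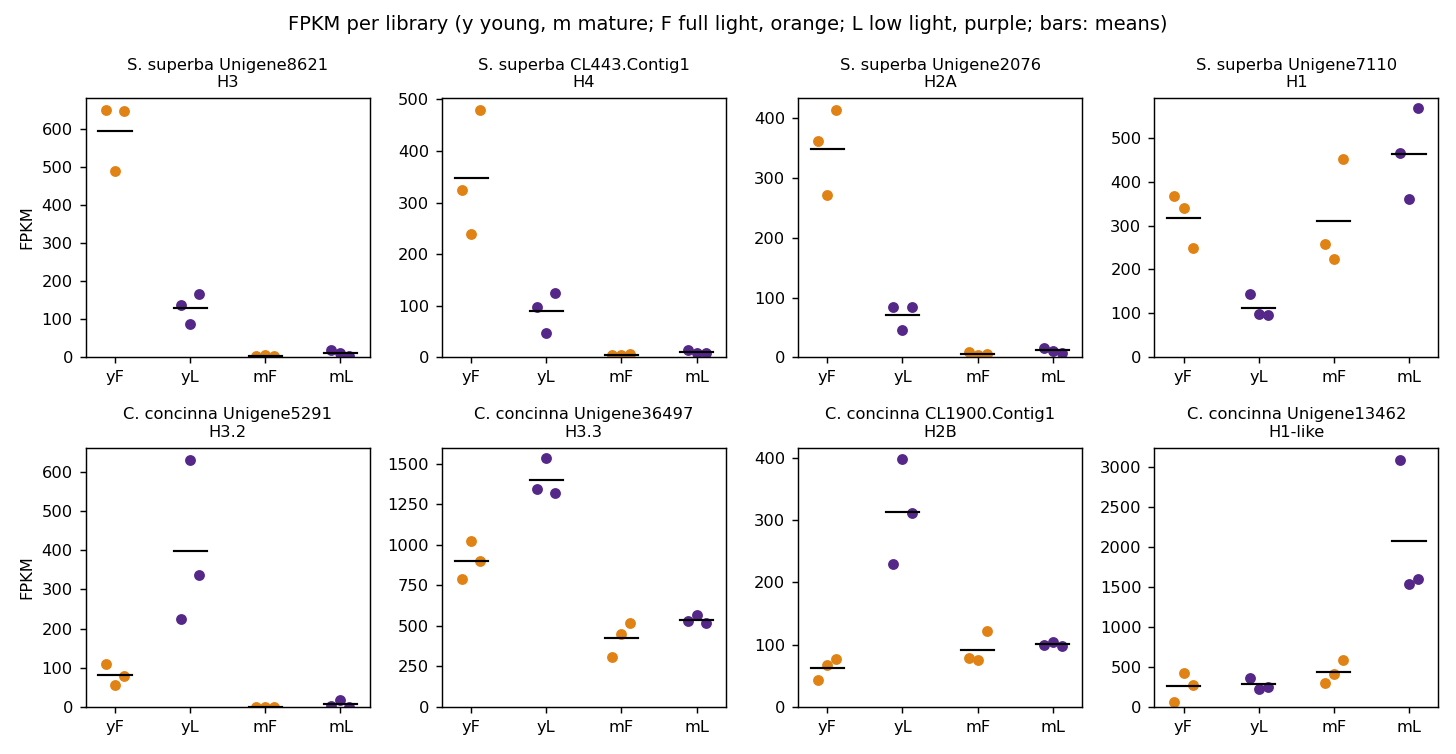
FPKM per library of 4 histones of S. superba (upper row) and 4 of C. concinna (lower row) in young (y) and mature (m) leaves in full (F) and low (L) light, with bars at group means. The 3 core histones of S. superba are highest in young full light leaves, and H3.2 Unigene5291, H3.3 Unigene36497 and CL1900.Contig1 of C. concinna are highest in young low light leaves.

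In mature leaves no histone was called for light in either species. In S. superba limma gave 0 of 34, with 7 at an unadjusted p under 0.05, all lower in full light, where 13.6% of all unigenes had such a p and 0.855% were called (0.255% higher, 0.6% lower). The median change was -0.36, beside -0.09 over all unigenes. In C. concinna it gave 0 of 46, with 1 higher and 3 lower at an unadjusted p under 0.05, where 6.59% of all unigenes had such a p and 0.0566% were called (0.0302% higher, 0.0264% lower). The median was -0.43, beside -0.05 over all.

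Whether the light contrast itself differed with leaf age was tested as an interaction. In S. superba 12 of 34 histones were called, all with a larger change of full over low light in young leaves, where 1.61% of all unigenes were called (1.11% in that direction, 0.506% in the other). All 4 tested H4 were among them. Unigene8621 (H3) had the values given above, and its light changes were 2.23 in young and -1.17 in mature leaves, a difference of 3.40 ± 0.62 (adjusted p = 0.0309). For Unigene2076 (H2A) the difference was 3.22 (adjusted p = 0.0202), and for Unigene88 (H3.2) it was 3.10 (adjusted p = 0.0266). None of the 12 was called under each omission of 1 library, and the count was 0 without young full light library 1 or young low light library 2, 1 without young full light library 3, and 2 to 6 without mature full light library 2 or 3, mature low light library 1, young full light library 2 or young low light library 3. With the alike pair averaged it was 3, Unigene2076, Unigene8933 and CL443.Contig1, and without both libraries limma called 0, with 20 higher and 0 lower at an unadjusted p under 0.05. In C. concinna limma called 0 of 46, with 1 higher and 11 lower at an unadjusted p under 0.05, where 10.8% of all unigenes had such a p and 0.00566% were called (0.00377% higher, 0.00189% lower).

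Linker histones took a larger share of the histone sum in mature than in young leaves. In S. superba H1 made up 14.2 ± 3.03% (SD, n = 3) of the summed histone FPKM in young full light leaves and 37.6 ± 5.35% in mature ones, and in low light 13.8 ± 2.56% and 39.5 ± 3.42%. In C. concinna the shares were 30.8 ± 5.28% and 54.4 ± 6.81% in full light, against 16.6 ± 5.82% and 66.7 ± 6.66% under low light. The young and mature libraries did not overlap in any of the 4 pairs. A larger share did not always mean more H1. Mean summed H1 of S. superba at full light was 884 FPKM in young leaves but 532 in mature ones, with overlapping libraries. Its low light means were 335 (young) and 675 (mature). The C. concinna means were 1701 and 2252 at full light, whose libraries overlap, then 1873 and 4636 under low light. Unigene13462, the weak H1-like hit described below, averaged 2077 of that 4636. These sums were not tested. Without young low light library 2, 3 or both, the young low light share of S. superba was 13.3 to 15.8%, and without mature low light library 2 the mature low light share of C. concinna was 70.2%, again with no overlap. These are shares of the named histones. Core histones that the name rule missed would lower the H1 share, and any missed H1, which was not counted, would raise it.

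Unigene7110 of S. superba, named H1C, had 366, 340 and 248 FPKM in young leaves in full light and 258, 223 and 452 in mature ones, which overlap (log2 0.08, adjusted p = 0.851). In low light it had 144, 99.0 and 96.0 in young and 465, 360 and 567 in mature leaves, and was lower in young leaves (-2.03 ± 0.30, adjusted p = 0.000335), the only histone of that species called in this direction. It was higher in full than in low light in young leaves (1.49, adjusted p = 0.021), a call lost without young full light library 1 (0.0701) or 2 (0.0594) or young low light library 2 (0.0952) or 3 (0.0754), or with that pair averaged (0.0846). CL7333.Contig2, H1.2-like, had 523, 454 and 401 in young and 173, 149 and 234 in mature leaves in full light (1.32, adjusted p = 0.00258), and 224, 144 and 174 against 239, 131 and 128 in low light (0.16, adjusted p = 0.69). The full light call was lost after rescaling (0.0843).

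In C. concinna Unigene18650, an H1 and the most abundant histone of the species, had 1140, 1374 and 827 FPKM in young and 1009, 1353 and 1999 in mature leaves in full light, and 947, 726 and 1309 against 2212, 1478 and 2542 in low light. It was lower in young leaves in low light (-1.07 ± 0.34, adjusted p = 0.0283), a call lost without mature low light library 1 (0.0832) or 3 (0.107) or young low light library 1 (0.0677) or 2 (0.116), and after rescaling (0.102). Unigene13462, an H1-like hit with an E-value of only 5.72e-06, had 65.8, 426 and 273 in young and 300, 405 and 591 in mature leaves in full light, and 367, 230 and 251 against 3088, 1541 and 1602 in low light. It changed by -2.83 ± 0.56 in low light (adjusted p = 0.00212), and its light change in mature leaves, -2.24, was not called (adjusted p = 0.317). Other H1 went the other way: Unigene3365 and Unigene12699 were higher in young leaves in low light (1.32, adjusted p = 0.0189; 2.11, adjusted p = 0.0021). The call of Unigene3365 was lost without mature low light library 1 (0.0525) or young low light library 2 (0.0589).

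Genes that work beside the histones were counted in the same fits, and their counts for age stand beside 36.3% (full light) and 29.5% (low light) of all unigenes called higher in young leaves of S. superba and 20.2% and 17.1% in C. concinna. Among replication fork and S phase genes (PCNA, MCM, DNA polymerases, ribonucleotide reductase and others), 38 of 55 tested in S. superba were higher in young leaves in full light and 0 lower, and 31 were higher and 1 lower in low light. C. concinna had 35 higher and 0 lower of 78 in full light and 26 higher and 3 lower in low light. Histone chaperones, which hand histones to DNA, were higher in young leaves for 10 and 5 of 11 in S. superba and 7 and 4 of 18 in C. concinna, by full and low light. The low light counts of the chaperones, 45.5% and 22.2%, were the nearest to those shares. For light in young leaves of S. superba, 8 replication genes were higher in full light and 1 lower (3.02% and 2.32% of all unigenes), and 1 of 11 chaperones was higher, the FACT subunit Unigene16522 (1.03, adjusted p = 0.0147). The small chain of ribonucleotide reductase, which makes DNA precursors, CL6244.Contig2, had 41.2, 35.6 and 66.9 FPKM in full and 8.31, 8.60 and 9.44 in low light (2.27, adjusted p = 0.0219). PCNA, the sliding clamp of the fork, CL4434.Contig2, had 21.6, 17.7 and 25.1 against 11.5, 11 and 14.5 and was not called (0.75, adjusted p = 0.104). In C. concinna 0 of 78 replication genes and 0 of 18 chaperones were called for light in young leaves by limma, and PCNA CL5516.Contig1 had 23.4, 13.5 and 13.2 in full and 30.1, 51.0 and 47.3 in low light (-1.32, adjusted p = 0.15). The median change of the replication genes there was 0.12, with 47 positive and 31 negative, beside -1.25 for the histones and 0.34 over all unigenes. Mitotic cyclins and their kinases were higher in young leaves for 7 of 9 and 10 of 16 in each light in S. superba and C. concinna, and 0 were called for light in young leaves. The summed young over mature ratio of genes named E2F or retinoblastoma was 3.56 in full and 2.87 in low light in S. superba. In C. concinna it was 1.53 and 1.29. For histone modifying enzymes these ratios were 1.76 and 1.34, and 1.16 and 0.897. For full over low light in young leaves, by species, the E2F and retinoblastoma ratios were 0.962 and 1.12. Those of the enzymes were 1.21 and 1.44. These sums were not tested.

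Summed transcripts of cell type markers also differed between the groups, and their part in the histone values was not tested. In these sums, too, fewer cells of a type and less RNA per cell cannot be told apart. Markers of dividing cells were PCNA, cyclins of types A, B and D, and B-type cyclin-dependent kinases. That list shares genes with the replication and mitotic lists above. Summed markers of dividing cells ran from 389 to 564 FPKM in young full light, 292 to 373 in young low light, 76 to 111 in mature full light and 82 to 100 in mature low light leaves of S. superba, and 253 to 313, 326 to 388, 51.7 to 82.2 and 66.9 to 87.0 in C. concinna. With age 10 of 13 and 8 of 11 of them were called higher in young leaves in full light, against 9 and 8 under low light, beside the same shares of all unigenes, while for light in young leaves limma called 0 in both species. Mesophyll markers, antenna and Rubisco small subunit proteins, ran from 8460 to 11825 in young full light and 20636 to 28311 in young low light leaves of S. superba, with 12 of 28 called lower in full light (2.32% of all unigenes). In C. concinna they ran from 11208 to 16665 and from 17482 to 26772. Vascular markers of S. superba ran from 162 to 202 in young full light, 100.0 to 131 in young low light, 24.7 to 26.9 in mature full light and 7.22 to 48.4 in mature low light leaves, so that with age in full light their sum differed 7.27-fold, against 5.38-fold for the markers of dividing cells. Of 7 tested, 6 were called higher in young leaves in full light and 5 in low light, and 0 for light in young leaves by limma, with 3 at an unadjusted p under 0.05. Epidermis and guard cell markers of that species ran from 379 to 435, 267 to 284, 116 to 152 and 143 to 203 in the same order, with 15 of 27 called higher and 1 lower in young leaves in full light and 1 called higher for light in young leaves. For both lists and for the markers of dividing cells, the young full light libraries of S. superba lay above the young low light ones, as the summed histones did. Its mesophyll markers lay the other way. In C. concinna the young full light libraries lay below the young low light ones for dividing cell and mesophyll markers, as for the summed histones. Its vascular and epidermis markers overlapped between these groups. In C. concinna vascular markers ran from 187 to 370 and 159 to 330 in young full and low light leaves and 43.0 to 50.3 in mature full light leaves, and epidermis markers from 220 to 284, 154 to 268, 158 to 172 and 183 to 196 in the same order as above. Mature low light library 2 of C. concinna, the library with high H3.2, also had vascular markers at 462 FPKM against 35.2 and 46.2 and mesophyll markers at 49138 against 30016 and 26531. No marker list had a summed level of 0 in any library.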

How the data were processed

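RNA was extracted with a Sangon spin column kit (S. superba) or a Magen HiPure kit (C. concinna) and sequenced as Illumina libraries, per the labels' protocols. The authors' FPKM values, 1 column per library per the file headers, were made with RSEM 1.2.12, per the submitters' processing notes. Assembler, aligner and read filters are not given in the sources used here. FPKM carry no counts, so no count model or counting interval was used, and an exact 0 is only a listed 0. The files held no sequences, and no genome was used, so none are printed.

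Each species was fitted apart in limma 3.58.1 (R 4.3.3): log2 of FPKM plus a pseudocount of 1, a filter of FPKM 1 in 3 libraries, a mean per group, moderated two-sided tests with trend, and Benjamini-Hochberg adjustment over 50970 or 53005 unigenes. The contrasts were full minus low light at each age, young minus mature leaves in each light, and their interaction. The script was tested on simulated data. Tables used Python 3.11.15 with pandas 2.3.3 and numpy 2.4.6, figures matplotlib 3.10.9.

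The members, marker lists and pathway lists were chosen with earlier results of these data known, and lists are word matches on hit names. Named histones were, per species, the 2 most abundant of each class, the 3 called with the largest change in each direction of a comparison (the higher group averaging 5 FPKM or more), those named as variants, and age calls against the majority. Unigene8933, CL7975.Contig3, CL2655.Contig2, CL443.Contig4, Unigene5660, Unigene32649, Unigene216, Unigene27743, Unigene9038, Unigene26176 and the genes outside the histones were chosen after their values were seen where the rule did not name them. So were Unigene6941, Unigene13032, Unigene3365 and Unigene12699. Alternatives were a pseudocount of 0.1, no filter, median-ratio rescaling, a replicate block, a fit of the compared groups only, summed contig clusters and omission of libraries. A count over histones known by KEGG term alone, and fits and sums with the libraries that stand apart averaged or left out, were added after seeing the data.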

Additional observations from a re-analysis of the deposited data

Results flagged for a closer look

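In S. superba the light effect differed between young and mature leaves, by the interaction term of limma at an adjusted p under 0.05, for 12 of 34 tested histones. Of all unigenes tested, 1.61% were called, 1.11% with a positive term and 0.506% with a negative one. The difference of log2 changes, young minus mature leaves, was 3.45 for CL443.Contig9 (H4), 3.40 for Unigene8621 (H3), 3.22 for Unigene2076 (H2A), 3.10 for Unigene88 (H3.2) and 2.90 for CL443.Contig1 (H4). It was 2.74 for CL2655.Contig2 (H3.2), 2.41 for CL443.Contig4 (H4), 2.30 for Unigene5660 (H4) and 2.11 for Unigene7110 (H1C). It was 1.88 for Unigene8933 (H2B.3), 1.53 for CL7975.Contig3 (H2B) and 1.5 for Unigene1634 (H2A). In each of the 12 the term was positive, and adjusted p-values ran from 0.0202 to 0.0479. The 3 CL443 contigs share sequence and are not independent. None of the 12 was called under each omission of 1 library. With young low light libraries 2 and 3, which are closer to each other than other pairs, averaged into 1 sample, 3 of the 12 were called.

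The summed histones of young leaves differed with light in opposite directions, with full over low light ratios of 2.56 in S. superba and 0.452 in C. concinna, and no overlap of libraries in either species. That difference between the species was not tested.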

How the results depend on the processing

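Counts of called histones stayed within 1.5 times of those reported under a pseudocount of 0.1, no filter and summed contig clusters. With median-ratio rescaling 17 histones of C. concinna were called for age in full light, in place of 27. In a fit of only the compared groups, 0 were called for light in young leaves of C. concinna. Without the low light libraries numbered 1, light by age gave 3 calls in S. superba, in place of 12. With young low light libraries 2 and 3 averaged, S. superba gave 6 calls for light in young leaves and 3 for light by age, and without both 0 and 0 (22 and 20 at an unadjusted p under 0.05), while its age calls stayed within 1.5 times. Core histones known by KEGG term alone numbered 31 in S. superba and 27 in C. concinna, tested or not. In S. superba they gave 10 calls for light in young leaves, 1 (lower) for light in mature leaves and 7 for light by age. Of all its unigenes tested, 5.33%, 0.855% and 1.61% were called. C. concinna had 0 for light in young leaves, 15 for age in full light and 23 for age in low light. Its shares of all unigenes tested were 0.0302%, 28.4% and 37.8%. Omitting 1 library at a time gave 3 to 19 calls for light in young leaves, 0 to 10 for light by age, 28 to 30 for age in full light and 17 to 21 for age in low light in S. superba, and 0 to 3, 0, 20 to 28 and 33 to 40 in C. concinna. Rescaled summed histone FPKM were 4897 and 1760 in young and mature full light leaves of S. superba (6298 and 1399 as deposited) and 4356 in young full light leaves of C. concinna (5456 as deposited). CL5669.Contig2 changed sign when contig clusters were summed (0.28 and 0.74). Of the histone modifying enzymes of S. superba, 1 was called for light in young leaves (lower) after rescaling and 1 (lower) without the low light libraries numbered 1, in place of 2 higher and 1 lower. The fit of all libraries tested 61 of these enzymes, and it called 3.02% of all unigenes higher and 2.32% lower. Without mature low light replicate 2, mesophyll markers of C. concinna gave 24 calls for age in low light, 13 higher and 11 lower, in place of 11 and 16. The fit of all libraries tested 41 of these markers, and it called 17.1% of all unigenes higher and 20.7% lower. The causes were not tested.

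With the replicate number as a block, light by age in S. superba gave 7 calls, and the block changed no other count of calls by over 1.5 times. Same-numbered libraries of different groups deviated together with r of -0.03 to 0.32 (median 0.02) in S. superba and -0.24 to 0.26 (median 0.02) in C. concinna. Not every same-numbered pair was above 0.1, so the block was not taken as the design. There were exceptions in part between young and mature libraries. In S. superba in low light, r was 0.324, 0.104 and 0.0999 for same-numbered libraries and -0.247 to -0.155 between library 1 and the others. Its libraries numbered 2 and 3 correlated with each other as much (0.129 and 0.132). In full light r was 0.287 for number 3 and -0.151 to -0.134 between library 3 and the others. Numbers 1 and 2 had only 0.0295 and 0.0308, against 0.107 with each other. In C. concinna in full light, r was 0.256 for number 3, but 0.221 between mature library 2 and young library 1. Whether the numbers pair these samples is not settled. Depth is unknown, which leaves the error of values near 0 unknown.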
